A study of Homo sapiens with 24 samples.

Results

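To determine which transcripts differ when human embryonic stem cells (hESCs) carry the chimpanzee rather than the human sequence of HAR123, 3 cHAR123 hESC libraries were compared with 3 hHAR123 hESC libraries, across all genes. These 6 libraries were chosen by their genotype and stage labels out of 24 in the series. All are from H9 (WA09), an established human embryonic stem cell line. hHAR123 cells are unedited, and cHAR123 cells had the human element exchanged for its chimpanzee ortholog by CRISPR-Cas9 with a donor plasmid. For comparison, 3 HAR123-KO libraries (element deleted) and 3 mHAR123 libraries (element exchanged for the mouse ortholog) from undifferentiated hESCs were used, together with 3 libraries each of hHAR123, cHAR123 and mHAR123 cells differentiated for 5 days into neuroectoderm with Noggin and SB431542. The study worked with 2 clones per genotype. The sources used here do not tie libraries to clones. The effect of the edit and the differences between clones therefore cannot be told apart, and p-values measure only the spread between libraries.

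Human accelerated regions (HARs) are short stretches of DNA that were conserved over mammalian evolution and then changed rapidly in the human lineage. Many act as enhancers, which are noncoding sequences that raise transcription of a gene from a distance. HAR123 lies in an intron of SMG6, the gene of the endonuclease that cuts transcripts in nonsense-mediated RNA decay (NMD), so its replacement leaves the SMG6 coding sequence as it was.

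Total RNA depleted of ribosomal RNA was sequenced, and reads were counted over the exons of each gene. The cHAR123 hESC libraries held 26620784 to 30650685 counts and the hHAR123 hESC libraries 31682811 to 35198684. Between 31679 and 32525 genes had at least 1 count in a library of either group. Transcripts of the mitochondrial genome made up 4.37 to 4.45% of counts in cHAR123 and 4.02 to 4.10% in hHAR123, without overlap. Counts of cHAR123 replicate 1 stood further from replicates 2 and 3 (chi-square per degree of freedom of 3.24 and 3.65) than these did from each other (1.57), and those of HAR123-KO replicate 3 further from its replicates 1 and 2 (3.23 and 4.97, against 1.68). Values for single libraries below are counts scaled to the library's total (counts per 1e+06, CPM), in the order of replicates 1, 2 and 3.

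The element itself gives no gene count, so its exchange cannot be checked in these data, and the gene that hosts it was examined first. SMG6 (GRCh38, chr17:2059839-2303785, minus strand) stood at 67.6, 65.0 and 66.7 CPM in cHAR123 and at 77.1, 79.5 and 78.6 in hHAR123 hESCs. All 3 cHAR123 libraries were below all 3 hHAR123 libraries, with a log2 fold change of -0.27 ± 0.04 (SE) and an adjusted p of 3.7e-07 (edgeR). SMG6 was at 70.5, 71.8 and 71.0 CPM in HAR123-KO and at 70.9, 67.0 and 68.8 in mHAR123, and the direct difference of cHAR123 from either was -0.10 and -0.04 on the log2 scale. HIC1, a transcriptional repressor gene that overlaps the end of SMG6 on the other strand (chr17:2054154-2063241), was at 0.0751, 0.184 and 0.196 CPM in cHAR123 and at 0.284, 0.301 and 0.142 in hHAR123 hESCs. The HIC1 groups overlapped, and its counts were too low to be tested. Of 26 tested genes in the neighborhood of HAR123 on chromosome 17, 3 rose and 7 fell at an adjusted p under 0.01 with no fold limit, where 7.72% of all tested genes rose and 8.60% fell. None reached a 2-fold difference, and the member with the smallest adjusted p was MYO1C, a myosin motor gene (log2 fold change of 0.28 ± 0.03).

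DEGs are genes that differed by more than 2-fold (a log2 fold change beyond 1 either way) and whose adjusted p was below 0.01. Of 20935 genes tested, 131 were up-regulated in cHAR123 hESCs (0.626%) and 47 were down-regulated (0.225%). The groups differed in shape. Up-regulated genes moved little, with a median log2 fold change of 1.32, and 9 of 131 exceeded a log2 fold change of 2. Down-regulated genes moved far, with a median size of 2.20 on the log2 scale (2.19 with genes near 0 set to 3 counts), and 26 of 47 fell by more than 2. Of 14745 protein-coding genes tested, 66 were up-regulated (0.448%) and 20 down-regulated (0.136%). Of 3482 long noncoding RNA (lncRNA) genes tested, 44 were up-regulated (1.26%) and 21 down-regulated (0.603%). With DESeq2 in place of edgeR, 50 and 23 genes were called, and 96 of the 178 DEGs received no adjusted p there. Without cHAR123 replicate 1, 123 and 55 genes were called, which held 88 of the 131 and 43 of the 47. Across all leave-outs of 1 library, 79 to 88 of the 131 and 40 to 44 of the 47 were called again. Only 7 up-regulated and 3 down-regulated genes had a mean of at least 10 CPM over the 6 libraries. The median log2 fold change was 0.01 over all tested genes, 0.17 over the 4457 genes under 1 CPM and -0.07 over the 2061 genes at 100 CPM or more. Small shifts of gene groups below are to be read against this slope with level, whose part in them was not tested.

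**Figure D1:**
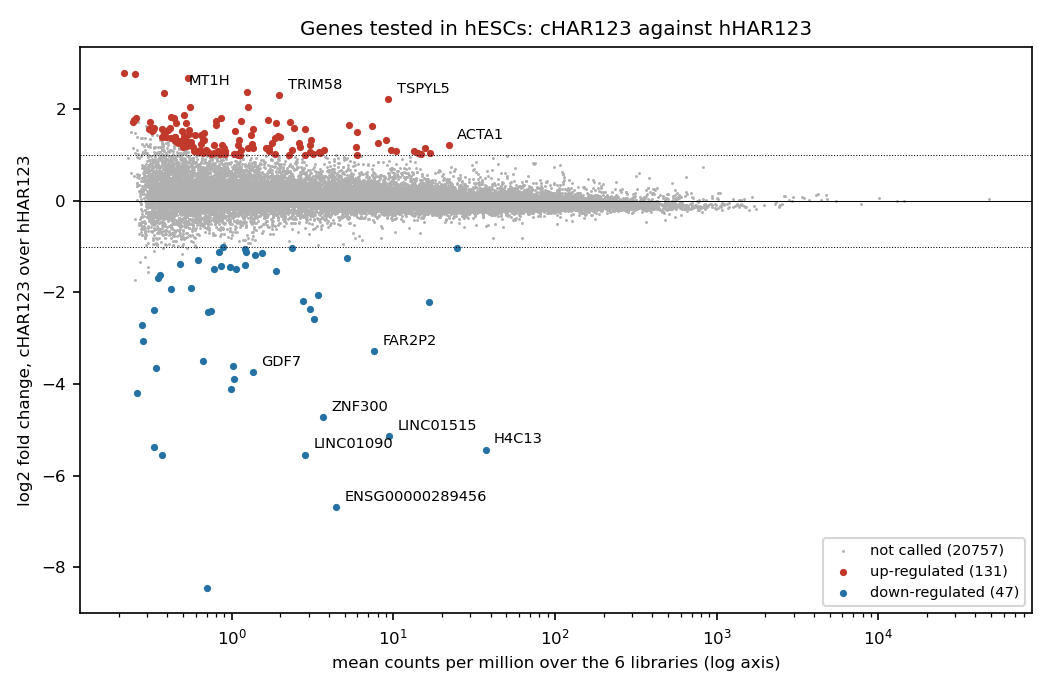
Log2 fold change of cHAR123 over hHAR123 hESCs (vertical axis) against mean CPM over the 6 libraries (horizontal log axis), 1 point a gene. The 131 up-regulated genes (red) reach a log2 fold change of at most 2.80, while the 47 down-regulated genes (blue) spread further, with H4C13 at the right of the deepest decreases. Fitted values of genes at or near 0 counts, the lowest point among them, depend on the prior count and are no measure of depth.

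The deepest decreases were close to silencing. ENSG00000289456, a lncRNA gene (chr6:35563135-35566952), was at 0.0376, 0.111 and 0.0979 CPM in cHAR123 against 8.87, 8.61 and 8.84 in hHAR123 hESCs. Its cHAR123 libraries held 1, 3 and 3 counts, and it was 81.9-fold lower with each of them set to 3 counts. Counting error leaves room for a smaller fold. ENSG00000286449, a lncRNA gene of chromosome 19 with 49, 35 and 56 counts in hHAR123, had 0 counts in each cHAR123 library. This gene falls outside the rule for named genes (its mean is under 1 CPM) and was chosen after its values were seen. In all, 8 of the 47 down-regulated genes had no more than 3 counts in any cHAR123 library.

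ZNF300, which encodes a zinc finger protein of the KRAB family of transcriptional repressors, was at 0.338, 0.295 and 0.196 CPM in cHAR123 and at 7.20, 6.59 and 7.53 in hHAR123 hESCs. That is 3.89% of the hHAR123 mean, a log2 fold change of -4.71 ± 0.19 (adjusted p = 1.4e-21). DNAJA4, a heat shock co-chaperone gene, stood at 0.0751, 0.221 and 0.0979 CPM against 1.74, 1.93 and 2.16 (-3.89 ± 0.33). GDF7, a ligand of the BMP family known from the dorsal neural tube, stood at 0.113, 0.0738 and 0.359 CPM against 3.06, 2.44 and 2.10 (-3.74 ± 0.31). In each of these 3 genes, every cHAR123 library was below every hHAR123 library, which is no further support because they were named as DEGs of these libraries. The other tested heat shock and BMP pathway genes gave no DEG. At an adjusted p under 0.01 with no fold limit, 9 of 19 tested chaperone genes fell (DNAJA4 included) and 1 rose, with a median of -0.12. Of 20 tested BMP pathway genes, 5 rose and 3 fell (GDF7 included), with a median of 0.12. Over all tested genes, 7.72% rose and 8.60% fell by this threshold.

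These low genes were low in HAR123-KO and mHAR123 hESCs too. ZNF300 was at 0.429, 0.306 and 0.485 CPM in HAR123-KO and at 0.348, 0.527 and 0.615 in mHAR123. DNAJA4 reached no more than 0.151 CPM in HAR123-KO and no more than 0.0683 in mHAR123, and GDF7 no more than 0.273 and 0.203. ENSG00000286449 was at 0 in all 9 edited hESC libraries. The pseudogenes FAR2P2 and FAR2P3 (log2 fold changes of -3.28 ± 0.11 and -2.58 ± 0.15 in cHAR123) also stood low in HAR123-KO (-3.65 and -3.34) and mHAR123 (-3.67 and -2.87), as did the lncRNA genes YPEL3-DT and ENSG00000289069. FAR2P2 and FAR2P3 are near-identical copies, so how reads were split between them is uncertain. These comparisons share the 3 hHAR123 libraries, so the likeness of their values is not an independent result. The direct differences of cHAR123 from HAR123-KO and from mHAR123 were 0.39 and 0.39 for FAR2P2 and -0.03 and 0.19 for YPEL3-DT (log2), none past the test.

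**Figure D2:**
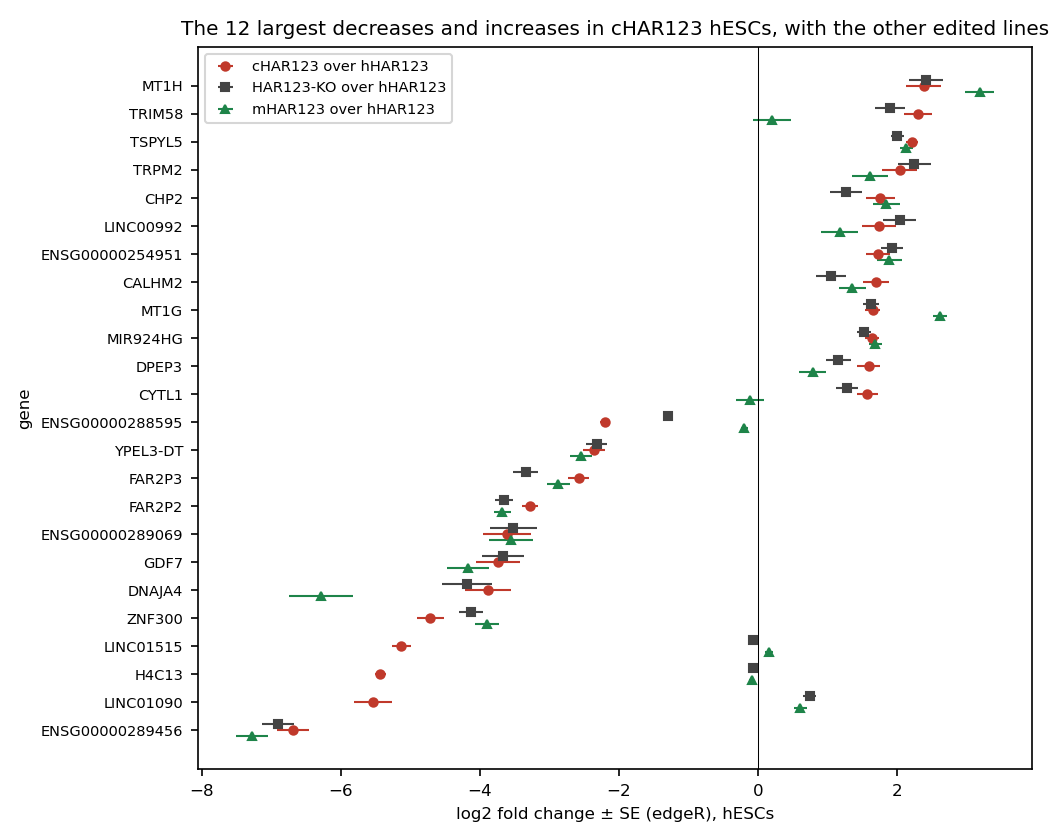
Log2 fold change ± SE (horizontal axis) of the 12 largest decreases and 12 largest increases among cHAR123 DEGs that averaged 1 CPM or more, in cHAR123 (circles), HAR123-KO (squares) and mHAR123 hESCs (triangles), each over the same hHAR123 libraries. LINC01515, H4C13 and LINC01090 are low in cHAR123 alone, while ZNF300, DNAJA4 and GDF7 are low in each edited line.

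A small set of genes differed in cHAR123 hESCs from each of the other 3 genotypes. The 3 fits share the cHAR123 libraries, and a gene called in each of them will mostly show no overlap of libraries. Of 20659 genes tested against HAR123-KO, 56 were DEGs (0.271%), and of 20950 tested against mHAR123, 33 were DEGs (0.158%). Of the 56, 17 were higher in cHAR123, a count that fell to 10 without HAR123-KO replicate 2 and to 9 without cHAR123 replicate 3. Without HAR123-KO replicate 3, 19 were higher and 36 lower. 6 genes were called in the same direction against hHAR123, HAR123-KO and mHAR123. 4 were lower (H4C13, LINC01515, LINC01090 and ZNF385D-AS1) and 2 were higher (MXRA5 and LTF).

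H4C13 encodes histone H4, a core protein of the nucleosome, from the large histone cluster of chromosome 6 (chr6:27873148-27873534, minus strand). Because it is the most abundant of the strongly lowered genes, the start of the gene is shown, from 250 bases before to 50 bases after the RefSeq transcription start (GRCh38.p14, chr6:27873485-27873784, minus strand), with a CCAAT box (CCAAT or its complement ATTGG) and a TATA box (TATAAA or TTTATA) in capitals.

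H4C13: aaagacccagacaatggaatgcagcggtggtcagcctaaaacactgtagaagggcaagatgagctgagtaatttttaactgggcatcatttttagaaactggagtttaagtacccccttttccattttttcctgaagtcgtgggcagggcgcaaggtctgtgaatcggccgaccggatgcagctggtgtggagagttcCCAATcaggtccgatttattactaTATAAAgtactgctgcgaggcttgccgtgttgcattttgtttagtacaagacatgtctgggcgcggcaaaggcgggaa

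The CCAAT box letters occur in 34.6% and the TATA box letters in 11.5% of all 35116 RefSeq promoters of this length. H4C13 was at 1.84, 2.10 and 1.27 CPM in cHAR123 hESCs and at 71.8, 74.1 and 72.2 in hHAR123. It was at 71.7, 71.1 and 68.0 CPM in HAR123-KO and at 72.1, 69.4 and 69.5 in mHAR123. The cHAR123 mean was 2.39% of the hHAR123 mean, and all 3 cHAR123 libraries were below all of the other 9. The log2 fold change was -5.43 ± 0.08 against hHAR123 (adjusted p = 1.7e-37), -5.35 ± 0.08 against HAR123-KO and -5.34 ± 0.08 against mHAR123. The rest of the 65 tested replication-dependent histone genes held no DEG. Over the whole list, 49 fell at an adjusted p under 0.01 with no fold limit and none rose, where 8.60% of all tested genes fell. The list median was -0.13 beside 0.01 over all tested genes. It was -0.03 over genes at 10 to 100 CPM and -0.07 over genes at 100 CPM or more. Histone H4 genes have coding sequences that are alike, so reads shared between copies make single-gene values less certain.

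LINC01515 (chr10:65570338-65880289) and LINC01090 (chr2:187712816-188384365) are lncRNA genes without an established role. LINC01515 stood at 0.526, 0.258 and 0.783 CPM in cHAR123 and between 16.8 and 21.5 in the other 9 hESC libraries, with a log2 fold change of -5.13 ± 0.14 against hHAR123. LINC01090 stood at 0, 0.111 and 0.228 CPM in cHAR123, at 4.96, 6.08 and 5.68 in hHAR123, and between 8.18 and 10.1 in HAR123-KO and mHAR123. Its log2 fold change was -5.54 ± 0.27 against hHAR123 and -6.27 ± 0.23 against HAR123-KO. ZNF385D-AS1, an antisense lncRNA gene, was at 0.977, 0.775 and 0.848 CPM in cHAR123 and at 2.11, 1.81 and 1.88 in hHAR123. It moved the other way in the other edited lines, at 5.19, 6.19 and 5.97 CPM in HAR123-KO and 4.84, 4.67 and 5.67 in mHAR123. Whether the counting used strand is not given in the sources used here, so reads of ZNF385D-AS1 and of a gene on the other strand may not have been told apart.

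MXRA5, a matrix remodeling protein gene of the X chromosome, was at 20.4, 19.3 and 19.9 CPM in cHAR123 and at 9.75, 9.58 and 9.46 in hHAR123. The 6 libraries of HAR123-KO and mHAR123 lay between 8.20 and 9.12, so no cHAR123 library overlapped the others. Its log2 fold change was 1.02 ± 0.07 against hHAR123, 1.22 ± 0.07 against HAR123-KO and 1.20 ± 0.07 against mHAR123. LTF, which encodes the iron-binding protein lactoferrin, rested on few reads, with 24, 16 and 40 counts in cHAR123 and 6, 3 and 5 in hHAR123 (2.69 ± 0.40). It is under 1 CPM on average and is named because it belongs to the count of 6.

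**Figure D3:**
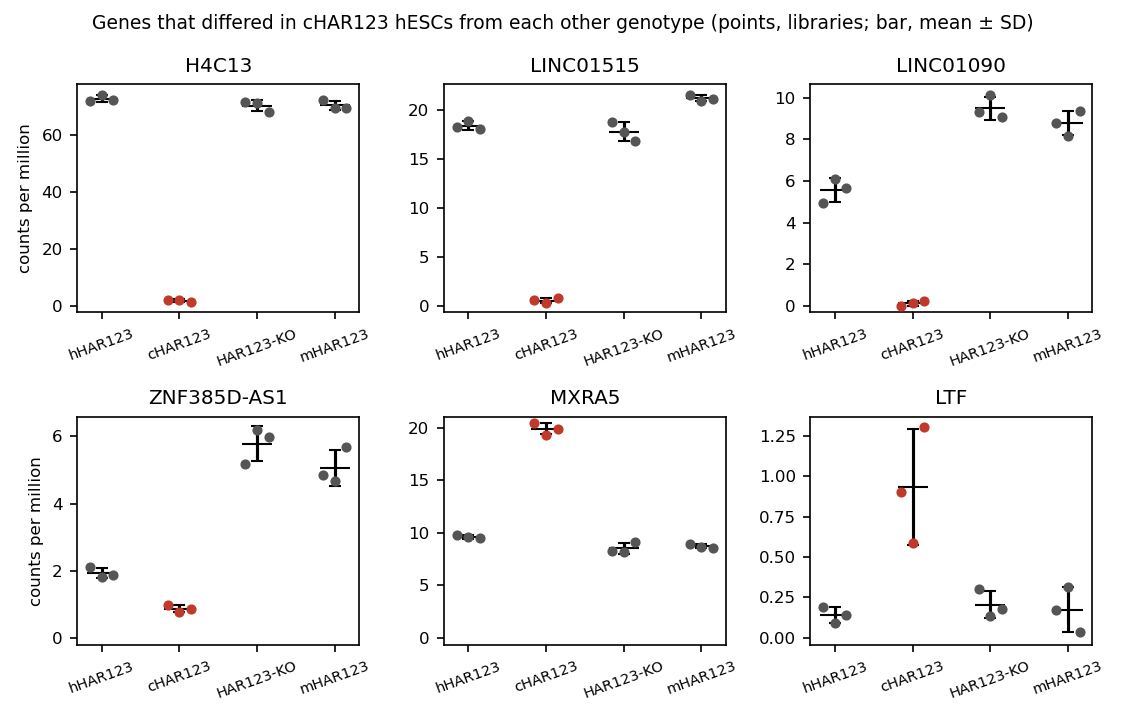
CPM (linear vertical axes that include 0) of the 6 genes in each hESC library, by genotype, with points for libraries and bars for the mean ± SD of 3 libraries. cHAR123 libraries (red) lie apart from all others in each panel, near 0 for H4C13, LINC01515 and LINC01090.

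Other genes were called against mHAR123 and not against HAR123-KO. ENSG00000288595, a lncRNA gene of the X chromosome, was at 5.56, 6.42 and 6.04 CPM in cHAR123, at 26.9, 28.4 and 26.0 in hHAR123, at 10.7 to 11.6 in HAR123-KO and at 23.1 or more in mHAR123. It lay below both edited lines without overlap, and its direct difference was -0.90 ± 0.09 from HAR123-KO, under the 2-fold limit, and -2.01 ± 0.08 from mHAR123. TRIM58, an E3 ubiquitin ligase gene known from red cell maturation, was at 3.53, 3.25 and 3.10 CPM in cHAR123 and at 0.537, 0.843 and 0.568 in hHAR123. Its direct difference was 2.10 ± 0.19 from mHAR123 and 0.41 ± 0.15 from HAR123-KO, the latter not past the test (adjusted p = 0.048). CYTL1, a secreted cytokine-like protein gene, had the same form, with direct differences of 1.69 ± 0.16 from mHAR123 and 0.30 ± 0.13 from HAR123-KO. TCEAL5, a gene of the X chromosome chosen after its values were seen, was at 0.225, 0.258 and 0.196 CPM in cHAR123, 1.20, 1.02 and 1.36 in hHAR123 and 9.10, 9.03 and 8.92 in mHAR123. In HAR123-KO it was at 0.686, 0.204 and 0.394 CPM, overlapping cHAR123, and was too low for the direct test.

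Among the largest increases were genes with roles far apart. Increases are given against hHAR123 unless said otherwise. Of all of them, only MXRA5 and LTF were also called against both HAR123-KO and mHAR123. Against hHAR123, HAR123-KO had 246 DEGs of 20832 genes tested and mHAR123 had 259 of 21139. cHAR123 had 56 of 20659 against HAR123-KO (0.271%) and 33 of 20950 against mHAR123 (0.158%). The first 2 fits share the hHAR123 libraries and the last 2 share the cHAR123 libraries, so these counts are not independent. TSPYL5, a nucleosome assembly family gene of chromosome 8, was at 15.1 CPM or more in each cHAR123 library and at 3.44, 2.89 and 3.38 in hHAR123, with a log2 fold change of 2.22 ± 0.09 (adjusted p = 1.4e-21). TRPM2, a calcium-permeable channel gene, rose by 2.04 ± 0.26 on the log2 scale, and CALHM2, a channel gene of another family, by 1.70 ± 0.19. CHP2, a calcineurin B-like calcium-binding protein gene, rose by 1.76 ± 0.21 and DPEP3, a dipeptidase gene, by 1.60 ± 0.17. The lncRNA genes LINC00992, ENSG00000254951 and MIR924HG rose by 1.74, 1.73 and 1.64. No cHAR123 library overlapped a hHAR123 library in any of these 8 genes. They were named as DEGs of these same libraries, so the lack of overlap is no further support.

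Metallothioneins are small cysteine-rich proteins that bind zinc and copper, and their genes lie together on chromosome 16. All 6 tested of 11 listed rose at an adjusted p under 0.01, and 4 were DEGs. By this threshold, 7.72% of all tested genes rose and 8.60% fell, and 0.626% were up-regulated DEGs. The list median was 1.43 beside 0.01 over all tested genes. MT1H was at 2.44, 1.96 and 1.92 CPM in cHAR123 and at 0.473, 0.422 and 0.284 in hHAR123 (log2 fold change of 2.39 ± 0.25). MT1G was at 7.85, 7.90 and 8.55 against 2.59, 2.59 and 2.41 (1.65 ± 0.11). Neither gene's groups overlapped, though both genes were named as DEGs of these same libraries. MT1E and MT1F rose by 1.81 ± 0.31 and 1.22 ± 0.15, while MT1X (0.80) and MT2A (0.55) rose by less than 2-fold. MT1E received no adjusted p from DESeq2. Its value ran from 1.53 to 2.47 when single hHAR123 libraries were left out. These genes are close copies of each other, so the split of reads among them is uncertain. MT1G stood higher in mHAR123 than in cHAR123 (direct difference of -0.97 ± 0.08 for cHAR123, adjusted p = 3.9e-13). Of 14 tested genes of zinc transport and metal response, SLC39A8, a zinc importer gene, rose (0.30 ± 0.06), 1 fell and none was a DEG.

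Because metallothionein genes moved together, the promoters of MT1H and MT1X are shown with the core of the metal response element, the letters bound by the zinc-sensing factor MTF1, in capitals (TGCACNC or TGCGCNC on either strand). They are from RefSeq (GRCh38.p14), at chr16:56669564-56669863 and chr16:56682220-56682519, both on the plus strand.

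MT1H: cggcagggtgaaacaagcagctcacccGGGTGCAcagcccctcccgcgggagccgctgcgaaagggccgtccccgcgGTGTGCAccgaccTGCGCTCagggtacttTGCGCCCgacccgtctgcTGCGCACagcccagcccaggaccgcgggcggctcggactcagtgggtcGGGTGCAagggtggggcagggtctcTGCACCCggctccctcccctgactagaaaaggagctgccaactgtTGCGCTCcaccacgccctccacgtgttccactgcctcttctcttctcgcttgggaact

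MT1X: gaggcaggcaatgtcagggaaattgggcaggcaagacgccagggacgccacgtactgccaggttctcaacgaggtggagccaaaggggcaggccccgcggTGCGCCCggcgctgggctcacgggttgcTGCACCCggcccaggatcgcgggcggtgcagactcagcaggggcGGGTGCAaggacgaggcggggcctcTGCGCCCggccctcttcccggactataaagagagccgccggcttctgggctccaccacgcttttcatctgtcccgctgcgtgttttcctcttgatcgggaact

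The core was found 8 times in the MT1H and 4 times in the MT1X window, where 29.6% of all promoters of this length hold it at least once and 2.30% hold it 3 times or more. These matches describe the sequence only.

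Genes of the actin cytoskeleton and targets of serum response factor (SRF) or YAP, factors that respond to actin assembly and cell tension, also stood higher. Of 20 tested, 15 rose at an adjusted p under 0.01 and none fell, with a list median of 0.27, and 2 were DEGs. By this threshold, 7.72% of all tested genes rose and 8.60% fell, with a median of 0.01. ACTA1, the skeletal muscle actin gene, was at 28.1, 32.7 and 32.1 CPM in cHAR123 and at 12.7, 12.6 and 13.8 in hHAR123 (1.22 ± 0.06). ACTG2, the enteric smooth muscle actin gene, was at 8.23, 8.38 and 8.12 against 3.57, 3.82 and 3.35 (1.17 ± 0.10). No groups overlapped in these 2 genes, which were named as DEGs of these same libraries. Both stood lower in cHAR123 than in HAR123-KO, by direct log2 differences of -0.83 ± 0.05 and -0.58 ± 0.08 (adjusted p = 1.1e-17 and 7.6e-07). Below the 2-fold limit, TAGLN and CCN1 rose by 0.83 and 0.73.

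The promoters of both actin genes are shown with the CArG box, the site bound by SRF, in capitals (RefSeq, GRCh38.p14, chr1:229434045-229434344 on the minus strand and chr2:73892758-73893057 on the plus strand). The letters of the CArG box occur in 1.29% of all promoters of this length.

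ACTA1: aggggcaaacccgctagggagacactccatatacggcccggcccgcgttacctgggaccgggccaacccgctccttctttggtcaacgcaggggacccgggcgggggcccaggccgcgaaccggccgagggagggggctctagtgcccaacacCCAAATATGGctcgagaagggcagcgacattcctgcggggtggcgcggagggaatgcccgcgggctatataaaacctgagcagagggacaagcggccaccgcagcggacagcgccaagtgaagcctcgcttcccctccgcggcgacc

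ACTG2: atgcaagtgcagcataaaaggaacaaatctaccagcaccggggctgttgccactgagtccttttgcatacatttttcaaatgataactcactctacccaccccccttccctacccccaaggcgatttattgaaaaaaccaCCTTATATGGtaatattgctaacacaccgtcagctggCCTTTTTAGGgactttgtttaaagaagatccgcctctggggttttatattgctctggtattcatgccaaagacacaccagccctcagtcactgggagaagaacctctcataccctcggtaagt

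The extracellular matrix moved with a smaller step. Of 34 tested collagen genes, 22 rose and none fell at an adjusted p under 0.01, with a median of 0.33. For this and the next counts, 7.72% of all tested genes rose and 8.60% fell by this threshold, with a median of 0.01. COL4A3, a basement membrane collagen gene, was the only DEG (1.43 ± 0.24), at 1.73, 1.55 and 2.48 CPM against 0.978, 0.452 and 0.682. COL1A1, the main fibrillar collagen gene, was at 132, 137 and 138 CPM in cHAR123 and at 90.8, 87.2 and 86.5 in hHAR123 (0.59 ± 0.03). Of 28 tested laminin and integrin genes, 14 rose and 1 fell, with LAMA5 at 0.53 ± 0.03. Among 8 tested mesenchyme markers, which hold collagen genes too, 5 rose and none fell. The summed mesenchyme list stood at 732 to 766 CPM in cHAR123 and at 601 to 626 in hHAR123, and its part in the collagen values was not tested. Of 14 tested classical cadherin genes 4 rose, and CDH13 (1.03 ± 0.20) and CDH18 (1.31 ± 0.35) were DEGs. The CDH13 call was lost without cHAR123 replicate 1 (0.90) and without hHAR123 replicate 2 (0.85), and the CDH18 call was lost when any of 4 single libraries was left out.

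**Figure D4:**
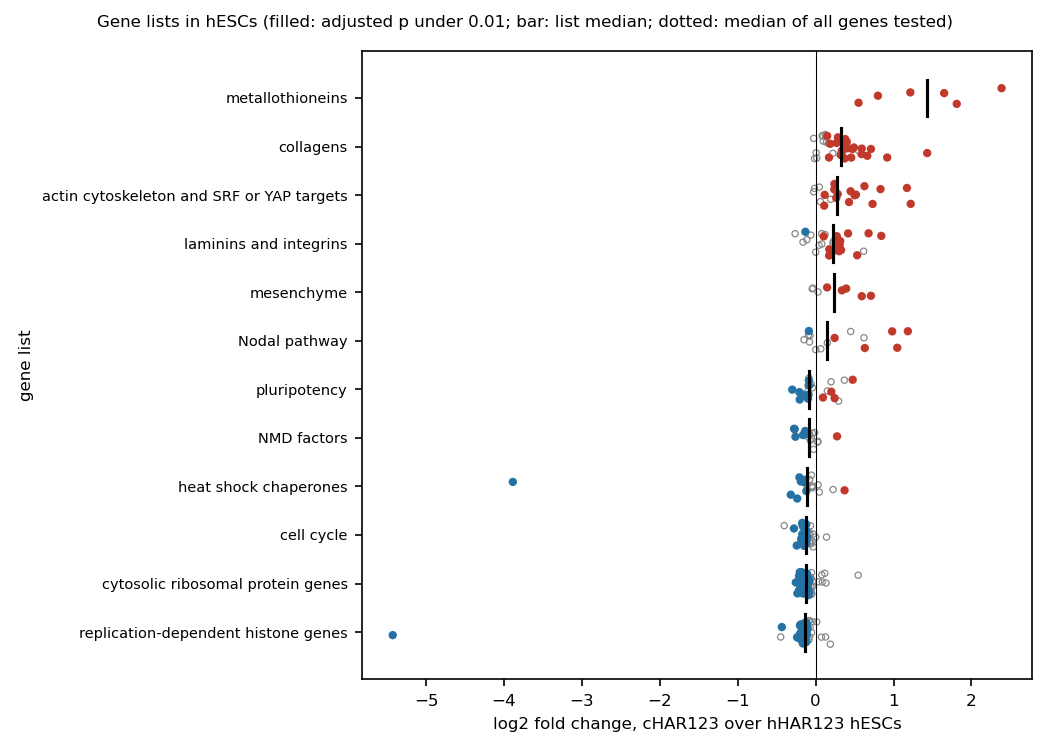
Log2 fold change of cHAR123 over hHAR123 hESCs (horizontal axis) for each tested member of 12 gene lists, filled where the adjusted p was under 0.01, with a bar at each list median. Metallothioneins sit to the right with a median of 1.43, while H4C13 and DNAJA4 lie far to the left of their lists.

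Nodal signaling keeps primed hESCs pluripotent and induces its own antagonists. Of 15 tested genes of the pathway, 5 rose and 1 fell at an adjusted p under 0.01, beside 7.72% and 8.60% of all tested genes. LEFTY2, a secreted Nodal antagonist, was at 21.5 CPM or more in each cHAR123 library and at 10.9, 10.9 and 10.5 in hHAR123 (1.05 ± 0.07, and 0.97 without cHAR123 replicate 2, which ends the call). CER1, another antagonist, was at 3.49, 4.24 and 3.36 against 1.58, 1.54 and 1.65 (1.18 ± 0.16). LEFTY1 (0.98) and NODAL itself (0.63) rose by less than 2-fold. BMP4, a ligand that the study followed in its RNA-seq data, was at 3.38, 3.14 and 3.65 CPM against 1.67, 2.23 and 2.36 (0.67 ± 0.15, adjusted p = 0.00092), while FOXD3, a stem cell and neural crest factor, was at 35.9, 35.6 and 36.0 against 38.6, 37.4 and 41.4 (-0.16 ± 0.05) and did not pass the test. EPHA5 and FZD1, also followed there, did not pass the test and overlapped between groups. In the Notch list, HES4 was called at 1.02 ± 0.30, a call lost when any of 4 single libraries was left out.

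Markers of cell identity were compared as lists and as sums. None of 21 pluripotency genes was a DEG, 4 rose and 8 fell at an adjusted p under 0.01 (7.72% and 8.60% of all tested genes did), and the median was -0.08. Their sum stood at 11570 to 11828 CPM in cHAR123 and 11741 to 11972 in hHAR123. ZFP42, a marker of undifferentiated cells, had the smallest adjusted p (187 ± 5.8 CPM in cHAR123 and 132 ± 2.8 in hHAR123, SD, n = 3). Summed markers of amnion, trophoblast and surface ectoderm stood at 29.3 to 30.0 CPM against 21.9 to 23.0, of endoderm at 6.17 to 7.23 against 4.43 to 4.91, of neural crest at 134 to 144 against 126 to 131, of mesoderm at 117 to 120 against 120 to 122, and of neuroectoderm at 28.5 to 32.0 against 36.3 to 40.5. The sums overlapped between genotypes for pluripotency and mesoderm and did not for the other lists. Such a gap says little by itself, as 7719 of 20935 genes tested had an unadjusted p under 0.05 (edgeR). How many single genes showed no overlap was not counted, and a few genes can carry a sum. CER1 belongs to the endoderm list, and its rise in CPM was about as large as the gap between the endoderm sums. The endoderm sum therefore shows no rise of the other endoderm markers. The median log2 fold change was 0.49 over 4 tested endoderm genes, with CER1 (described above) as a DEG, and 0.46 over 7 tested genes of the amnion, trophoblast and surface ectoderm list, beside 0.01 over all tested genes. CDX2, TP63, ISL1 and SOX17 were not tested for want of counts. TFAP2C, shared by amnion, trophoblast and germ cells, was at 7.48, 7.82 and 7.96 CPM against 3.91, 3.46 and 4.23 (0.97 ± 0.10), just under the limit for a DEG. In bulk RNA, more cells of a type and more RNA per cell cannot be told apart.

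NMD, the pathway that SMG6 serves, was examined by its factors and by known target transcripts. Of 18 NMD factor genes, 7 fell (SMG6 among them) and 1 rose, all by less than 2-fold. Of 14 target genes, 2 rose, CDKN1A by 0.71 ± 0.11 and GADD45B by 0.60, none fell, and the median was 0.01. Over all tested genes, 7.72% rose and 8.60% fell by the same threshold, so 2 of 14 is near the background. Of 79 tested ribosomal protein genes 56 fell, and of 29 cell cycle genes 16 fell, with medians of -0.12 and -0.12 beside -0.07 over genes at 100 CPM or more. In total, 27 of the 40 lists held no DEG. Their members with the smallest adjusted p outside those already named were OTX2 (-0.37) for neuroectoderm, NGFR (0.61) for neural crest, TFCP2L1 (0.31) for naive pluripotency, FZD7 (0.39) for WNT, DUSP6 (-0.20) for FGF, PFKP (0.25) for glycolysis, HMGCS1 (-0.24) for cholesterol synthesis, VLDLR (0.43) for the ATF4 response, PHLDA3 (0.64) for p53 targets and MX2 (0.77) for the interferon response. TOP2A (-0.24) for the cell cycle, RPS23 (-0.21) for ribosomal proteins, DNMT3A (-0.21) for DNA methylation, L3MBTL1 (0.45) for imprinted genes, PIWIL2 (0.64) for germline genes, TPX2 (-0.13) for the chromosome 20q11.21 region and PCDHB5 (0.79) for clustered protocadherins held the same place. KDR had the smallest adjusted p of the mesoderm list and did not pass the test (-0.07, adjusted p = 0.080). ADRA2A, an adrenergic receptor gene in the migration list, was a DEG at -1.54 ± 0.19. Of 237 tested zinc finger genes of chromosome 19, ZNF283 (-2.05 ± 0.14) and ZNF829 (-1.25 ± 0.11) were DEGs. Over all tested genes, 0.626% were up-regulated and 0.225% down-regulated DEGs. In this zinc finger list, 12 rose and 10 fell at an adjusted p under 0.01, where 7.72% and 8.60% of all tested genes did. Mitochondrial ribosomal RNA MT-RNR1, a target of ribosomal RNA depletion, was at 4.81, 4.06 and 3.65 CPM against 2.18, 1.72 and 1.90, with its call lost without cHAR123 replicate 1 (0.97) or hHAR123 replicate 2 (0.99).

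Whether the hESC differences were present after differentiation was tested in neuroectoderm libraries, none of which enter the hESC comparison. It is not certain which of the neuroectoderm columns labelled cHAR123 and mHAR123 hold which genotype, so both sets are given by their labels. In columns labelled cHAR123, 111 of 21275 tested genes were up-regulated over hHAR123 (0.522%) and 97 were down-regulated (0.456%). In those labelled mHAR123, 128 of 21220 were up-regulated (0.603%) and 91 down-regulated (0.429%). Of the 47 genes down-regulated in cHAR123 hESCs, 26 were also down-regulated in the columns labelled cHAR123 (55.3% of the hESC list and 26.8% of the neuroectoderm list), and 17 in those labelled mHAR123 (36.2% and 18.7%). Of the 131 up-regulated genes, 13 (9.92% and 11.7%) and 11 (8.40% and 8.59%) were called again. In the columns labelled cHAR123, 73 of the up-regulated genes could be tested, with a median log2 fold change of 0.24 in neuroectoderm where it was 1.27 in hESCs, and 36 of the down-regulated genes, with medians of -1.79 and -2.39.

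The genes lowered in cHAR123 hESCs alone separated the 2 neuroectoderm sets. H4C13 had 2, 3 and 5 counts in the columns labelled cHAR123, against 656, 800 and 838 in hHAR123 and 969, 936 and 855 in those labelled mHAR123. LINC01515 had 25, 33 and 33 counts against 1215, 1203 and 1171 in hHAR123 and 1387, 1148 and 1113 in mHAR123-labelled columns. LINC01090 had 4, 2 and 0 counts against 121, 129 and 140 and against 196, 154 and 184. TCEAL5, low in cHAR123 and high in mHAR123 hESCs, had 3, 3 and 2 counts in the columns labelled cHAR123, 21, 30 and 16 in hHAR123 and 166, 135 and 127 in those labelled mHAR123. In each of these 4 genes, the columns labelled cHAR123 stood where the cHAR123 hESCs did. Of the genes down-regulated in hESCs, 9 were called again only in the columns labelled cHAR123 and 0 only in those labelled mHAR123.

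**Figure D5:**
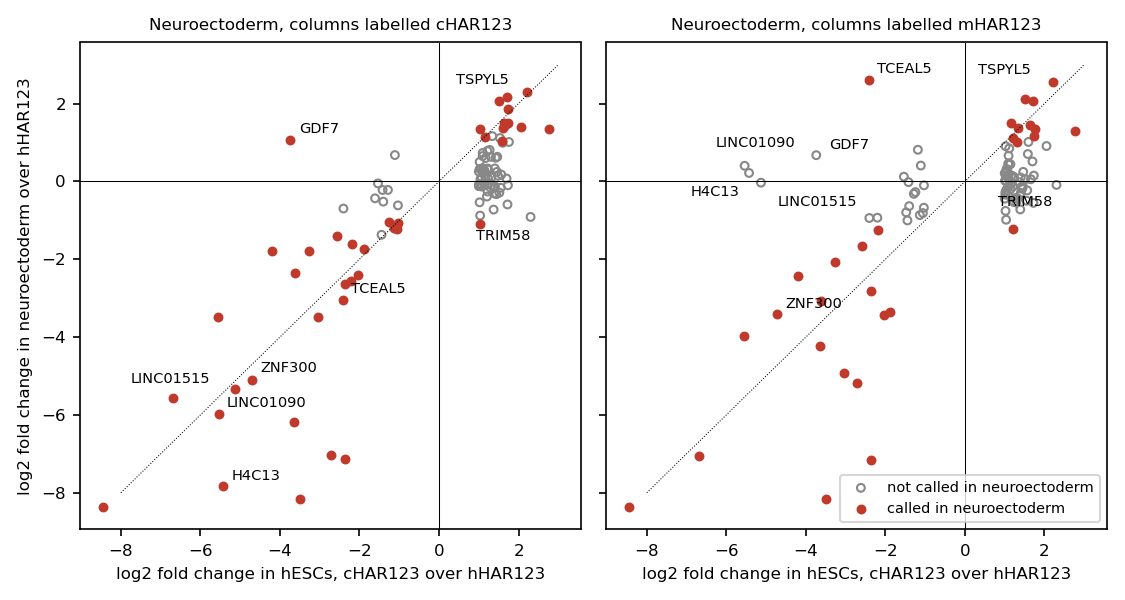
Log2 fold change in neuroectoderm over hHAR123 (vertical axes) against that of cHAR123 over hHAR123 in hESCs (horizontal axes), for the hESC DEGs tested at both stages, with called genes in red and the line of equal change dotted. H4C13, LINC01515 and LINC01090 lie near or below the line in the columns labelled cHAR123 (left) and near 0 in those labelled mHAR123 (right).

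The genes called in both neuroectoderm sets included ZNF300 (5, 7 and 4 counts in the columns labelled cHAR123 against 178, 185 and 186 in hHAR123), ENSG00000289456, YPEL3-DT and ZNF283 among 17 decreases, and TSPYL5, MIR924HG and CALHM2 among 7 increases. TSPYL5 rose by 2.30 ± 0.16 in the columns labelled cHAR123 and by 2.55 ± 0.15 in those labelled mHAR123. The 4 increases called again only in the mHAR123-labelled columns were CDH18, CHP2, LINC00540 and MT1F. GDF7 stood the other way. It had 384, 355 and 339 counts in the columns labelled cHAR123 and 141, 186 and 174 in hHAR123, a log2 fold change of 1.07 ± 0.09 (adjusted p = 6.2e-13), where it was nearly silent in cHAR123 hESCs. MIR4435-2HG, a lncRNA gene, was the other one called in opposite directions (1.04 in hESCs and -1.09 in columns labelled cHAR123). In the columns labelled mHAR123 these were ACTA1 (-1.23) and TCEAL5 (2.61). LINC00540 and MIR4435-2HG were named after their values were seen, because these counts are small.

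The change of the cHAR123 difference with the stage was tested directly as an interaction of genotype and stage. Of 23329 genes tested, 186 were called (0.797%). A positive value means a higher difference in hESCs than in neuroectoderm. Of the 176 hESC DEGs with a value, 31 were called, of which 22 were increases and 9 were decreases in hESCs. The fit holds the same hESC libraries in which these DEGs were called. That choice can raise the count of 31, which is not an independent result. TRIM58 had an interaction of 3.21 ± 0.37 (log2 fold change of 2.30 in hESCs and -0.91 in neuroectoderm) and ACTA1 one of 1.47 ± 0.14. FOXD3, no DEG in hESCs, had an interaction of -2.57 ± 0.12, with 321, 330 and 282 counts in the columns labelled cHAR123 and 48, 65 and 59 in hHAR123 neuroectoderm.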

How the data were processed

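RNA-seq was carried out on 24 H9 libraries (4 genotypes, 2 stages, 3 libraries each). Per the labels and the study's methods, the authors aligned reads to GRCh38 with STAR 2.5.2b and counted reads over exons with featureCounts. Raw counts were deposited by the authors for each gene and entered the tests without change. The strand setting is not given in the sources used here. One entry broken over 3 lines was left out, leaving 61551 genes. Symbols matched 42046 of them.

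Genes passing filterByExpr were fitted with edgeR 4.0.16 (R 4.3.3; TMM, factors of 0.982 to 1.02), with only the groups compared in each fit, by the quasi-likelihood test with Benjamini-Hochberg adjustment. SEs were derived from the F statistic. DESeq2 1.42.0, other size factors, no filter, a joint fit, a replicate block and leaving out libraries were alternatives. The pipeline was tested on simulated data. A floor of 3 counts covers counting error only. Promoters came from RefSeq, which matched 87 of 178 DEGs.

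Named genes were the 12 largest increases and decreases averaging 1 CPM or more, the DEGs of each of 40 gene lists (at most 4) or else the tested member with the smallest adjusted p, genes the study followed, and genes that differed from each other genotype (at most 6 in each direction, at least 1 CPM). LTF is under 1 CPM and was named because the count is small. A gene of 2 lists is not reported here and was left out of them. The members and lists were chosen with earlier results of these data known.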

Additional observations from a re-analysis of the deposited data

Results flagged for a closer look

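The cHAR123 difference of 15 of the named genes changed between hESCs and the neuroectoderm columns labelled cHAR123, by the interaction of genotype and stage (edgeR, adjusted p under 0.01 and an absolute value over 1, log2 scale, hESC difference minus neuroectoderm difference). It was below 0 for GDF7 (-4.81), FOXD3 (-2.57), FAR2P2 (-1.49), ADRA2A (-1.49) and FAR2P3 (-1.19). GDF7, FAR2P2, ADRA2A and FAR2P3 were DEGs with lower levels in hESCs, and both pseudogenes were also lower in neuroectoderm, by less. For genes named as hESC DEGs, the interaction shares the hESC libraries in which they were called, which can enlarge it.

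The interaction was above 0 for PIWIL2 (1.11), HES4 (1.13), CDKN1A (1.23), ACTA1 (1.47), CDH13 (1.90), TRPM2 (2.49), TRIM58 (3.21) and ENSG00000254951 (3.57), all higher in cHAR123 hESCs. It was also above 0 for H4C13 (2.39), which fell further in neuroectoderm, and for ZNF385D-AS1 (4.93 ± 1.24). TRPM2, ENSG00000254951 and ZNF385D-AS1 were too low in neuroectoderm for the test there, so their interactions rest on few reads. With the neuroectoderm columns labelled mHAR123, the same quantity turned below 0 for H4C13 (-5.67) and ZNF385D-AS1 (-2.02), both past the test. It no longer passed for FAR2P3 (-0.94), PIWIL2 (0.72), HES4 (0.97), CDH13 (1.01), TRPM2 (2.01) and ENSG00000254951 (2.07). It passed in the same direction for GDF7 (-4.43), FOXD3 (-3.13), FAR2P2 (-1.22), ADRA2A (-1.68), CDKN1A (1.01), ACTA1 (2.43) and TRIM58 (2.37).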

How the results depend on the processing

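No DEG named in hESCs changed sign under an alternative, whereas FZD1 and EPHA5, which did not pass the test, changed sign when single libraries were left out (lowest values of -0.03 and -0.00073). With the neuroectoderm columns labelled mHAR123, the change with stage turned from 2.39 to -5.67 for H4C13 and from 4.93 to -2.02 for ZNF385D-AS1. DESeq2 called 50 higher and 23 lower genes against hHAR123, 3 and 16 against HAR123-KO and 10 higher against mHAR123, all 50 and 23 among the edgeR calls. With it, 17 and 13 hESC DEGs were called the same way in the neuroectoderm columns labelled cHAR123 and mHAR123, and 17 changed with the stage. Of the 178 DEGs, 96 had no DESeq2 adjusted p, and 9 had one and were not called. With an adjusted p under 0.05, 208 genes were higher than in hHAR123, 51 and 60 were higher and lower than in HAR123-KO, and 62 changed with the stage. DESeq2 size factors gave 128 and 47 DEGs, no filter 150 and 69, and a fit over all libraries 130 and 48.

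Leaving out 1 library gave 94 to 123 higher and 46 to 55 lower genes against hHAR123, of which 79 to 88 were among the 131 and 40 to 44 among the 47, the fewest of the 131 without hHAR123 replicate 2. It gave 9 to 19 and 31 to 37 against HAR123-KO, 13 to 19 and 13 to 16 against mHAR123, and 6 to 7 against all genotypes. It gave 35 to 43 and 26 to 32 DEGs called again in neuroectoderm, and 24 to 32 that changed with the stage. TFAP2C became a DEG without cHAR123 replicate 1 or hHAR123 replicate 3. HES4 also lost its call with DESeq2 size factors.

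The fit with a replicate block gave 126 and 47 DEGs. Same-numbered cHAR123 and hHAR123 libraries did not deviate together (correlations of -0.109, -0.017 and -0.063 over 15005 genes), so the numbers name libraries and do not pair them. Genes under 1 CPM hold 96 of the 178 DEGs, and depth limits their precision.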
